A study of Mus musculus with 94 samples.

Results

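The 9 genes described here were listed for the megakaryocyte and platelet programme: Nfe2, Itga2b, Vwf, Pf4, Clu, Gp1bb, Gp9, F2r and Selp. They were followed across single mouse haematopoietic stem cells. The genes were taken as a named list and not by a filter on their values, but earlier results of these data were known. All 9 were among the 13244 genes of the deposited table. Single-cell RNA sequencing had been run on 94 C57BL/6 cells recovered from bone marrow 6 months after transplantation of fetal liver stem cells, in a study of the early stage of myelodysplastic syndrome. Of these, 46 cells bear the label Ski-KO and 48 the label Ski-WT, and all were sorted as Cd45.2+ lineage-negative cells with c-Kit, Sca-1 and Cd150 and without Cd48. Ski encodes a co-repressor of TGF-beta signalling. The labels name no allele, Cre driver, age, animal or culture. Each genotype was therefore 1 sample, cells were not used as replicates, and no test between genotypes was made. The Ski-KO cells carry the label prefixes 051716 (27 cells) and 051816 (19 cells), and every Ski-WT cell carries 061016, so that effects of genotype and of prefix cannot be told apart.

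Megakaryocytes are the large marrow cells that shed platelets. A part of the stem cell pool carries transcripts of this lineage before any commitment, and such platelet-biased stem cells are usually recognised by Vwf, with Itga2b, Selp, Clu and Pf4 among their further markers. In the list, Nfe2 is the transcription factor that drives late platelet formation. Itga2b (CD41), Gp9, Gp1bb and the adhesion receptor gene Selp encode proteins of the platelet surface. F2r encodes a thrombin receptor. Vwf, Pf4 and Clu encode secreted proteins stored in or released from platelets.

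A cell is said here to hold a gene when its value is 5 TPM or more, TPM being a share of all transcripts corrected for transcript length. The members fell into 3 tiers of abundance. Nfe2 was held by 63 of 94 cells (67.0%, exact 95% interval 56.6% to 76.4%). Next came F2r with 32 cells, Pf4 with 29, Gp9 with 25, and Itga2b and Selp with 16 each. Vwf was held by 5 cells, Clu by 3 and Gp1bb by none. A count of 0 of 94 allows a share of up to 3.19% by the rule of 3 counts of the total, and the exact 95% bound is 3.85%. Intervals and limits on shares cover counting error only. Neighbours in this order from F2r to Gp9 had overlapping intervals (24.6% to 44.5% for F2r and 18% to 36.7% for Gp9), as had Itga2b and Selp, both at 17.02%.

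Promoters are shown for the members whose co-occurrence in cells is described below: Pf4, Gp9 and F2r, which were often held by the same cells, and Selp, which was rarely held with Gp9. RefSeq sequences of GRCm38.p6 (250 bases before to 50 after the start) were found for 6 of the 9 members. The submitters' processing notes name the build mm9, and no coordinates were carried between builds. Capitals mark GATA or its reverse complement TATC, the core bound by GATA factors, and TGAGTCA or TGACTCA, the core of the element bound by the Nfe2 protein. GATA on either strand occurs in 57.9% of 32851 RefSeq promoters of this length and TGAGTCA in 5.20%.
Pf4, chr5:90772185-90772484, + strand: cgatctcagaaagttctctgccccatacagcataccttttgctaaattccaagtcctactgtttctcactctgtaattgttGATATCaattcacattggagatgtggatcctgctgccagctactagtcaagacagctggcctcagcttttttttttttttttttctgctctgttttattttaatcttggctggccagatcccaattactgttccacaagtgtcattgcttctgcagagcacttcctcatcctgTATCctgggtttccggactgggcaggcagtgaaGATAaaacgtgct
Gp9, chr6:87777820-87778119, + strand: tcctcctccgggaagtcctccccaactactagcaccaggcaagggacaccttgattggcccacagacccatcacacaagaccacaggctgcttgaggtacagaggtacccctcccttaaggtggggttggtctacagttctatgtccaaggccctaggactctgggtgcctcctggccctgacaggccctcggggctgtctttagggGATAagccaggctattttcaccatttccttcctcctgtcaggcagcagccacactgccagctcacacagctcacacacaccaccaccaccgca
F2r, chr13:95618417-95618716, - strand: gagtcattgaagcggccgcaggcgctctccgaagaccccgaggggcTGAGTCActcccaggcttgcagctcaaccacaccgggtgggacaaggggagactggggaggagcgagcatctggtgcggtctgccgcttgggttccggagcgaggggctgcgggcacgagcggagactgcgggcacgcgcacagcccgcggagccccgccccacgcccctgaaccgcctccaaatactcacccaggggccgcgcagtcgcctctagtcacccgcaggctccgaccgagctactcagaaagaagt
Selp, chr1:164115014-164115313, + strand: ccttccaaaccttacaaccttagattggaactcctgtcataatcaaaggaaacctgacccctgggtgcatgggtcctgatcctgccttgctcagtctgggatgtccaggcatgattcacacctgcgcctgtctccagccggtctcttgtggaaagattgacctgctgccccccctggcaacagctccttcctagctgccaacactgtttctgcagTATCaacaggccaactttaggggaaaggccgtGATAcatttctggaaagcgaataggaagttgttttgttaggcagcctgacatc
The Pf4 window held 4 matches to GATA, of which one pair overlaps in the palindrome GATATC. Gp9 held 1, Selp 2 and F2r 0, and F2r was the only one of the 6 windows with TGAGTCA. Matches are descriptions of the letters and were not tested as binding sites.

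Nfe2, the transcription factor, was the most common member in every prefix. In prefix 051716 its lowest, median and highest values were 0, 31.5 and 3140.08 TPM, in prefix 051816 they were 0, 203 and 2858.38 TPM, and in the Ski-WT cells 0, 68.07 and 3950.76 TPM. The ranges of the prefixes overlapped, and every prefix held cells at 0. Nfe2 was held by 16 of 27 cells in prefix 051716 (59.3%), 16 of 19 in prefix 051816 (84.2%) and 31 of 48 Ski-WT cells (64.6%). The Ski-KO prefixes thus lay on opposite sides of the Ski-WT share, and the pooled difference of 4.98 percentage points (Newcombe 95% interval -13.7 to 23.1) combines opposite directions. The mean log2(TPM + 1) of Nfe2 was 0.14 higher in the Ski-KO cells, but -0.61 in prefix 051716 and 1.21 in prefix 051816 relative to the Ski-WT cells.

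**Figure D1:**
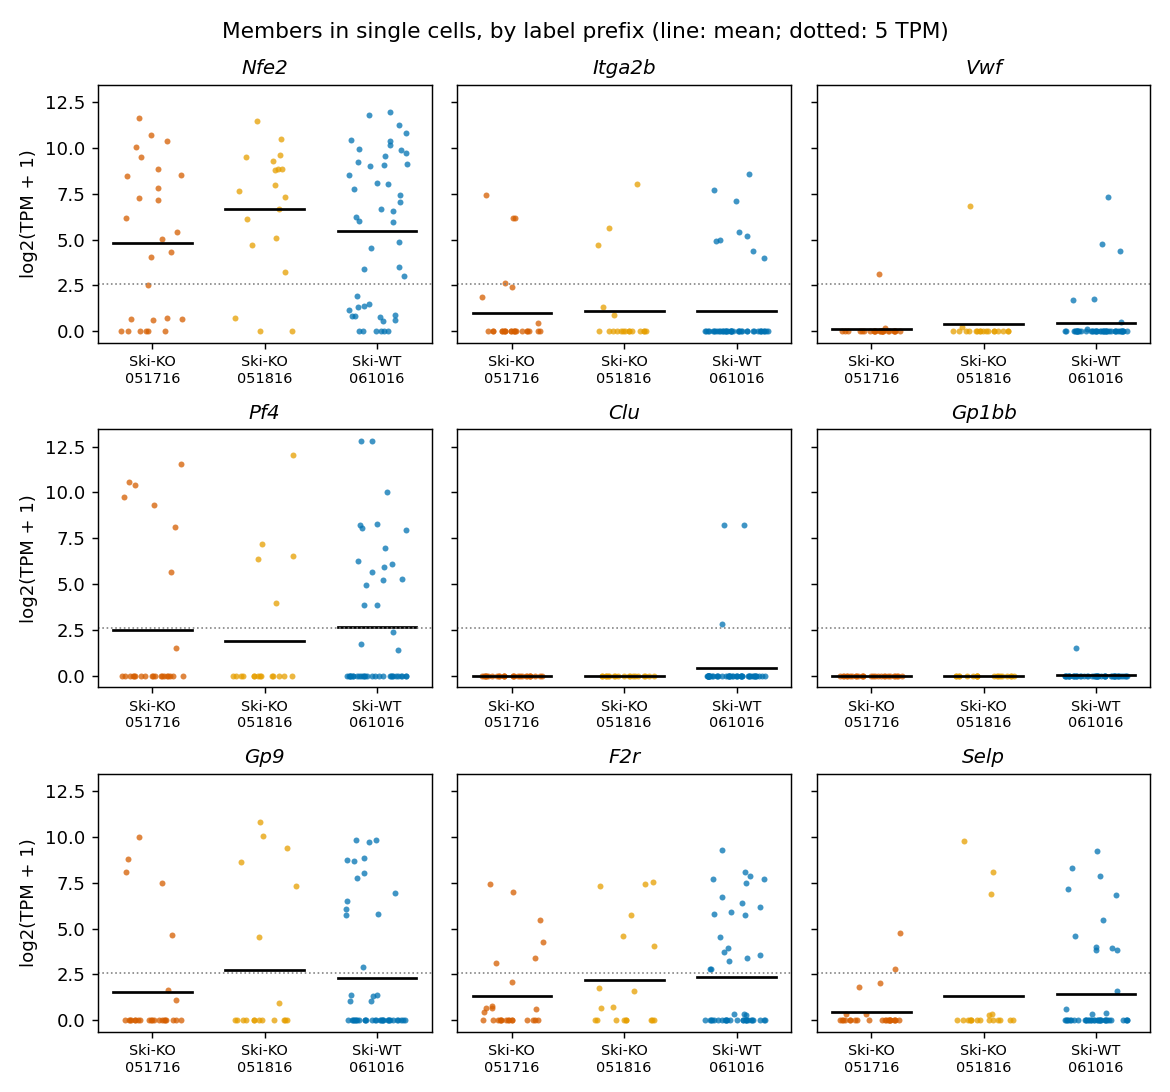
Level of each of the 9 members by label prefix (horizontal), given as log2(TPM + 1) (vertical). Points are cells, black lines are means over the cells of a prefix and the dotted line is 5 TPM. Nfe2 spreads over the whole range in all prefixes, whereas the other members are at or near 0 in most cells and high in a few.

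The receptor and surface genes came next. F2r, the thrombin receptor gene, was held by 6 cells of prefix 051716 (22.2%), 6 of prefix 051816 (31.6%) and 20 Ski-WT cells (41.7%). Among the cells that held it, the median level was 30.9, 106.7 and 56.6 TPM in the same order, with a highest value of 633.12 TPM in a Ski-WT cell. The share was lower by 15.6 percentage points in the Ski-KO cells (interval of the difference -33.1 to 3.53), so 0 lay within counting error. The difference in mean log2(TPM + 1) was -0.69, and after quantile normalization the share difference changed sign (1.54 points). When every cell above 0 TPM was counted, the share difference was -0.09 points.

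Gp9, a subunit of the receptor for von Willebrand factor, was held by 5 cells of prefix 051716 (18.5%), 6 of prefix 051816 (31.6%) and 14 Ski-WT cells (29.2%). Where held, its level was high, with a median of 268, 535 and 238 TPM and a highest value of 1798.82 TPM in prefix 051816. Its Ski-KO prefixes lay on either side of the Ski-WT cells, by -10.6 and 2.41 percentage points. Gp1bb, which encodes another subunit of the same receptor, was above 0 in a single cell, a Ski-WT cell at 1.87 TPM. In RefSeq Gp1bb overlaps Sept5, which was held by only 2 cells, and the reads of overlapping genes can be hard to assign.

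Itga2b, which encodes the alpha chain of the fibrinogen receptor, was held by 4 cells of prefix 051716 (14.8%), 3 of prefix 051816 (15.8%) and 9 Ski-WT cells (18.8%). Its highest values were 170.05, 258.29 and 376.52 TPM. The genotypes differed by -3.53 percentage points (interval -18.8 to 12.04), the smallest difference among the 6 members held by 10 or more cells, and when every cell above 0 TPM was counted the difference turned to 7.34 points. Quantile normalization turned it to 0.72 points.

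Selp, which encodes P-selectin, was held by 2 cells of prefix 051716 (7.41%), 3 of prefix 051816 (15.8%) and 11 Ski-WT cells (22.9%). The 2 cells of prefix 051716 had 6 and 26.1 TPM as lowest and highest value, those of prefix 051816 ranged from 116.77 to 870.92 TPM, and the Ski-WT cells ranged from 13.29 to 590.87 TPM. The difference was -12.05 percentage points (interval -26.99 to 3.46), and the share was lower in both Ski-KO prefixes. Selp overlaps the predicted gene Gm16548 in RefSeq, which was held by 1 cell, also a Selp cell.

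The secreted proteins ranged from the highest level of any member, that of Pf4, to genes held by few cells. Pf4, platelet factor 4, was held by 7 cells of prefix 051716 (25.9%), 5 of prefix 051816 (26.3%) and 17 Ski-WT cells (35.4%). The Ski-KO prefixes differed by 0.39 percentage points, and the pooled difference from the Ski-WT cells was -9.33 points (interval -26.9 to 9.23). Levels spanned a wide range among the cells that held Pf4, from 13.58 to 7150.23 TPM. The median over holding cells was 850 TPM in prefix 051716, 91.7 TPM in prefix 051816 and 74.09 TPM in the Ski-WT cells, so the order of levels where held was not that of the shares.

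Vwf, the usual marker of platelet-biased stem cells, was held by 5 cells. Ski-KO cell 12 (prefix 051716) had 7.71 TPM and Ski-KO cell 43 (prefix 051816) had 111.06 TPM. Ski-WT cells 18, 31 and 35 had 159.26, 26.21 and 19.78 TPM. The shares, 2 of 46 and 3 of 48 cells, differed by -1.90 percentage points, with an interval for counting error of -12.9 to 9.08. Clu, which encodes the secreted chaperone clusterin, was at 0 in all 46 Ski-KO cells, which allows a share of up to 6.52% by the rule of 3 counts (exact 95% bound 7.71%). It was held by Ski-WT cells 35, 36 and 47, at 293.58, 303 and 6.07 TPM (6.25%, interval 1.31% to 17.2%).

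The members were then set beside all genes. In both Ski-KO prefixes the share of holding cells was lower than in the Ski-WT cells for 6 of the 9 members (Itga2b, Vwf, Pf4, Clu, F2r and Selp) and higher for none. Among the 6240 genes that were above 0 in 25% or more of either genotype's cells, 43% were lower in both prefixes and 16.7% were higher in both, and among all genes above 0 in any cell 39.5% were lower. Only 6 of the 9 members passed that filter, Vwf, Clu and Gp1bb being too rare. The median difference in share was -5.25 percentage points over the 9 members and -3.44 over the 6240 genes, and in mean log2(TPM + 1) it was -0.29 and -0.22. These sets are unlike, since the 9 include Vwf, Clu and Gp1bb (-1.90, -6.25 and 0 points). The members that passed the filter were at -15.6 (F2r), -12.05 (Selp), -9.33 (Pf4), -5.25 (Gp9), -3.53 (Itga2b) and 4.98 points (Nfe2). Quantile normalization moved the median log2 difference of all genes to -0.02. Both prefix comparisons use the same Ski-WT cells. Ski itself was held by 3 Ski-KO and 6 Ski-WT cells, so transcript levels did not check the genotype labels.

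**Figure D2:**
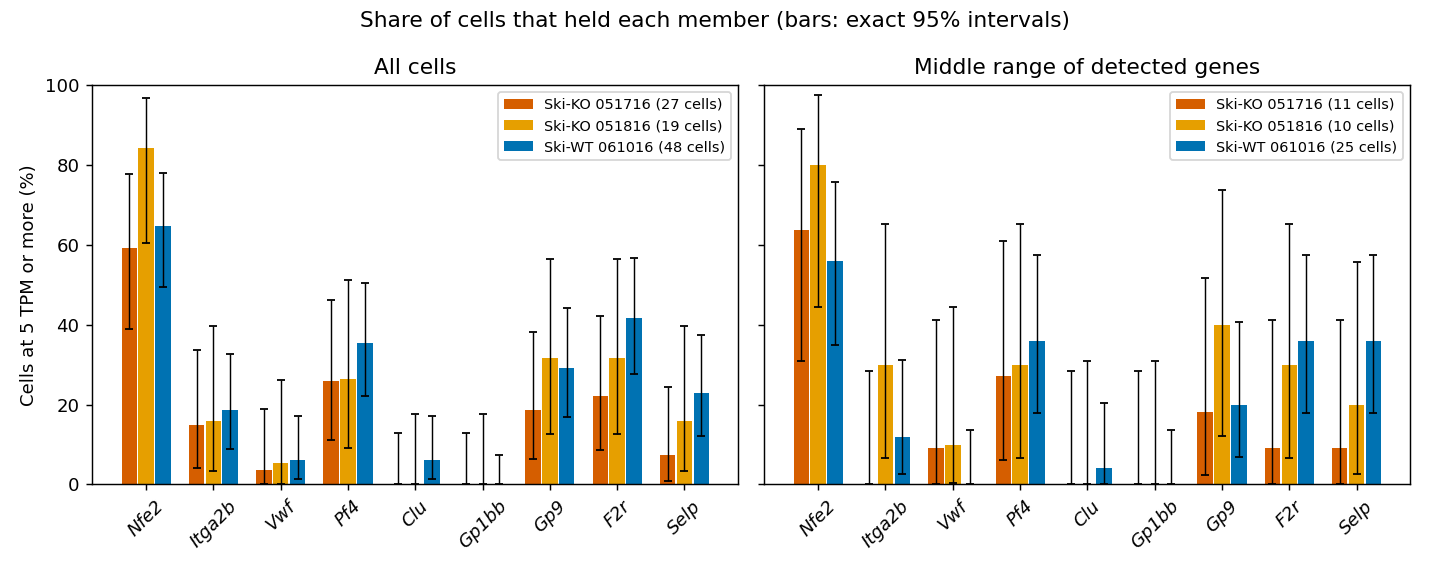
Share of cells at 5 TPM or more (vertical axis, percent) for each member, by label prefix, over all cells (left) and over cells with similar numbers of detected genes (right). Error bars are exact 95% intervals that overlap between prefixes for every member. Over all cells F2r is at 22.2%, 31.6% and 41.7%, and in the right panel Gp9 and Itga2b are highest in prefix 051816.

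The number of detected genes moved with these shares. A cell had a median of 3248 genes above 0 in prefix 051716, 3679 in prefix 051816 and 3670.5 in the Ski-WT cells. Among the 24 cells with the fewest genes (2326 to 3148), Pf4 and Gp9 were each held by 1 cell, and among the 24 with the most (4033 to 5214) each was held by 13. F2r went from 4 to 15 of 24 cells and Itga2b from 2 to 8. Genes in general are held by more cells where more genes are detected. The mean share over the 6240 genes went from 25.5% to 41.8%, a smaller rise than that of Pf4 and Gp9 (4.17% to 54.2%) or F2r (16.7% to 62.5%). The spread of such rises over single genes was not computed, so a steep rise cannot be called particular to these members. Mcm5, a replication gene described at the end, went from 2 to 18 of 24 cells.

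Selp did not follow that rise. It was held by 3 of the 24 cells with the fewest genes, 12 of the 46 between and only 1 of the 24 with the most. Among the Ski-WT cells it was held by 1 of 9, 9 of 25 and 1 of 14 in this order. Among the Ski-KO cells the counts were 2 of 15, 3 of 21 and 0 of 10, so that a rise and fall was not seen there. A lower share in the 24 cells with the most genes than in the 46 between was found for 22.3% of the 6240 genes. No interval was set on this difference, which was picked out after the values were seen.

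**Figure D3:**
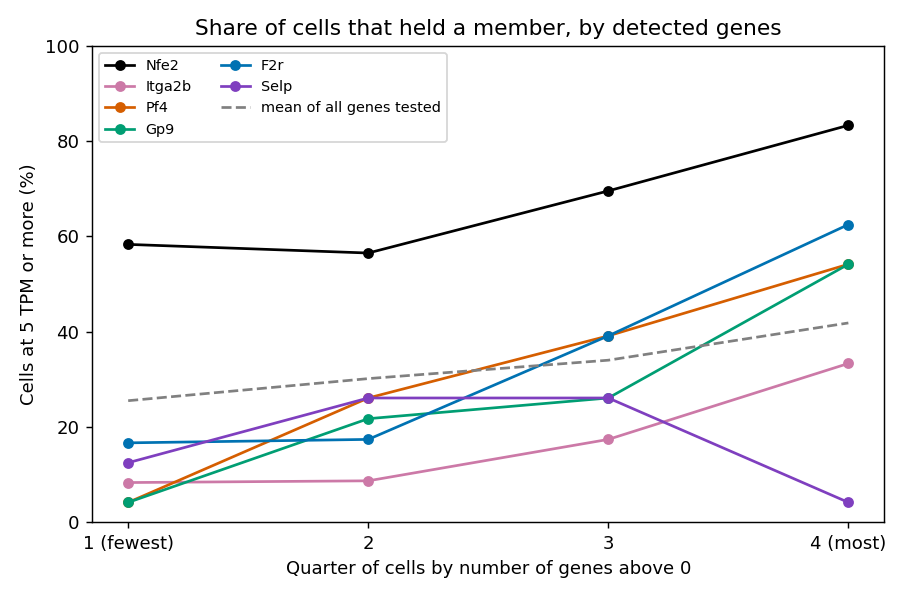
Share of cells at 5 TPM or more (vertical axis, percent) for the 6 members held by 10 or more cells, in the 94 cells divided into 4 groups of 23 or 24 by the number of genes above 0 (horizontal axis). The dashed line is the mean over the 6240 genes, without their spread. Pf4, Gp9 and F2r climb more steeply than the dashed line, while Selp falls from 26.1% in both middle groups to 4.17% in the highest.

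When cells were restricted to similar numbers of detected genes, several differences between genotypes changed sign. The restriction kept the 46 cells between the 25th and 75th percentile (3150 to 4011.25 genes): 11 of prefix 051716, 10 of prefix 051816 and 25 Ski-WT cells, with medians of 3412, 3564.5 and 3550 genes. The difference in share turned for Gp9, from -5.25 to 8.57 percentage points, and for Itga2b, from -3.53 to 2.29. These pooled values combine opposite prefixes, Gp9 being at -1.82 in prefix 051716 and 20 in prefix 051816, and Itga2b at -12 and 18. For Vwf it turned from -1.90 to 9.52 points, which rests on 2 Ski-KO cells and no Ski-WT cell. F2r kept its direction at -17.0 points (interval -39.5 to 9.26), Selp at -21.7 points (-43.3 to 4.02) and Pf4 at -7.43 points (-31.9 to 19.1). Every interval, for counting error only, held 0.

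Among these cells 4 of the 9 members (Pf4, Clu, F2r and Selp) were lower in both Ski-KO prefixes, against 33% of the 6240 genes. Clu is not among those 6240 genes, and its direction rests on 1 Ski-WT cell. The median difference of the 9 members was 0 percentage points, and that of all genes was -1.33. That 0 is the value of Gp1bb, which was held by no cell and is not among the 6240 genes. The members among those genes were at -21.7 (Selp), -17.0 (F2r), -7.43 (Pf4), 2.29 (Itga2b), 8.57 (Gp9) and 15.4 points (Nfe2). F2r and Selp were held by 1 of 11 cells in prefix 051716, by 3 and 2 of 10 in prefix 051816, and by 9 of 25 Ski-WT cells each. Where instead the cells were matched on the number of genes at 5 TPM or more, Pf4 also turned, to 4.23 points, and F2r was at -4.62 points (-0.30 in log2). That range did not match the genes above 0, with medians of 3685 in the Ski-KO cells and 3441 in the Ski-WT cells.

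Co-detection was examined next, since platelet-biased cells would hold several members at once. A cell held a median of 2 members. The number ranged from 0 (7 cells) to 7, and 27 of 94 cells (28.7%, interval 19.9% to 38.98%) held 3 or more. The mean was 1.52 members per cell in prefix 051716, 2.11 in prefix 051816 and 2.25 in the Ski-WT cells. Cells with 3 or more members made up 2 of 27 cells in prefix 051716 (7.41%, interval 0.91% to 24.3%), 8 of 19 in prefix 051816 (42.1%, interval 20.3% to 66.5%) and 17 of 48 among the Ski-WT cells (35.4%, bounds 22.2% and 50.5%). Although of 1 genotype, the Ski-KO prefixes in this share thus lay farther from each other than either of them did from the Ski-WT cells. In mean members, prefix 051716 lay farther from the Ski-WT cells than from prefix 051816. In the middle range of detected genes the counts were 0 of 11, 5 of 10 and 7 of 25.

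**Figure D4:**
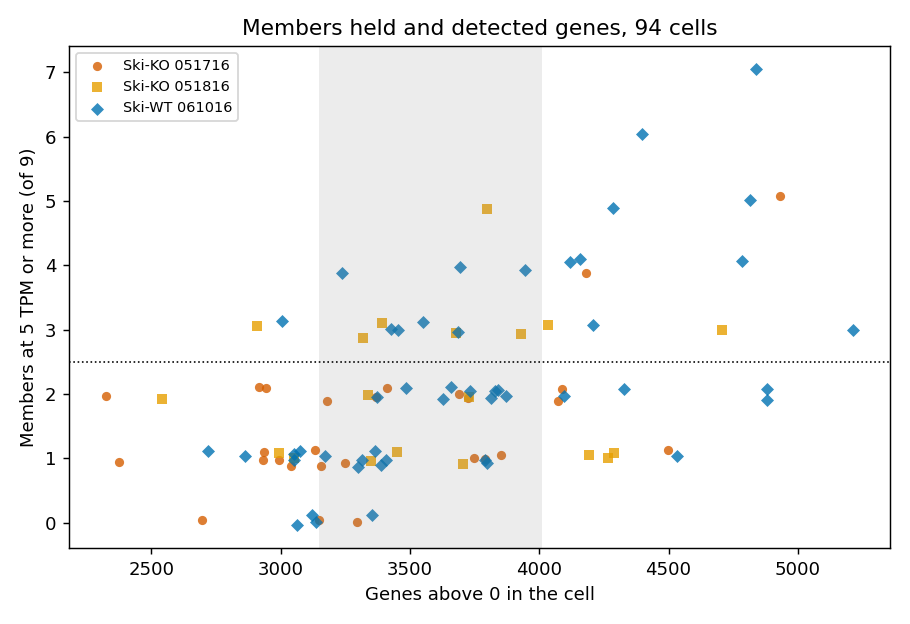
Number of members at 5 TPM or more (vertical axis, shifted slightly at random so that points do not hide each other) against the number of genes above 0 (horizontal axis) in the 94 cells. Colours and shapes are label prefixes, the grey band is the middle range from 3150 to 4011.25 genes, and the dotted line separates cells with 3 or more members. The Ski-WT cells with 6 and 7 members lie to the right of the band.

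Cells with 3 or more members had a median of 3946 genes above 0, compared with 3369 in the others, and their ranges overlapped (2907 to 5214 and 2326 to 4881). The Pearson correlation between the number of members and the number of genes is a description, since cells were not used as replicates. It was 0.58 in the 48 Ski-WT cells, 0.53 in the 27 cells of prefix 051716 and 0.07 in the 19 cells of prefix 051816. Doublets were not tested, and the part of detected genes in co-detection was not tested beyond these values.

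The cells with 6 or 7 members had the highest Pf4 levels of all. Ski-WT cell 35 held 7 members, with Pf4 at 7108.04 TPM, Gp9 at 832.09, Itga2b at 376.52, Clu at 293.58, Nfe2 at 219.45, F2r at 180.79 and Vwf at 19.78 TPM, and Selp at 0. Ski-WT cell 18 held 6, with Pf4 at 7150.23 TPM, F2r at 210.59, Itga2b at 204.38, Vwf at 159.26, Nfe2 at 100.27 and Selp at 15.19 TPM, and with Gp9 at 0. These were the only cells with 6 or more members, and they had 4839 and 4399 genes above 0. Among the Ski-KO cells, cell 2 of prefix 051716 and cell 32 of prefix 051816 each held 5: Nfe2, Itga2b, Pf4, Gp9 and F2r. They had 4930 and 3798 genes. Their highest members were Pf4 at 1524.89 TPM in cell 2 and Nfe2 at 202.65 TPM in cell 32, where Pf4 was at 91.69 TPM. Ski-WT cells 19 and 38 held the same 5 members, led by F2r at 633.12 TPM and Gp9 at 54.24 TPM.

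Both of the cells with 6 or more members held Vwf, but the other 3 holders of Vwf had at most 2 further members. Ski-KO cell 43 held Itga2b (258.29 TPM) and Nfe2 (33.18 TPM), Ski-WT cell 31 held Nfe2 (1367.78 TPM) and Selp (43.57 TPM), and Ski-KO cell 12 held no other member. Of the 5 Vwf cells 3 held Itga2b, where the product of the shares of both genes within prefixes gives 0.87 cells. With so few cells this is a description.

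For pairs of more common members, the number of cells that held both was set beside the product of their shares, computed within each prefix and summed. Pf4 and Gp9 were held together by 15 cells, against a product of 7.83. Gp9 and F2r shared 16 cells (product 8.84), and Pf4 and F2r shared 15 (product 10.2). All 3 genes were held by 10 cells, 2 in each Ski-KO prefix and 6 among the Ski-WT cells. Itga2b shared 8 cells with Pf4 (product 5.01), 8 with F2r (product 5.59) and 6 with Gp9 (product 4.31).

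In proportion to the product, pairs of the more common members with Nfe2 or Selp lay nearer to it or under it. Nfe2 shared 25 cells with F2r (product 21.5), 19 cells with Pf4 (product 19.3) and 18 with Gp9 (product 17.1), so that it lay close to the product with both of these. Selp shared 2 cells with Gp9 (product 4.53) and 1 with Itga2b (product 2.83), but 6 with Pf4 (product 5.20) and 7 with F2r (product 5.98). No p-values are given, since cells were not used as replicates and detected genes move with both members of a pair.

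**Figure D5:**
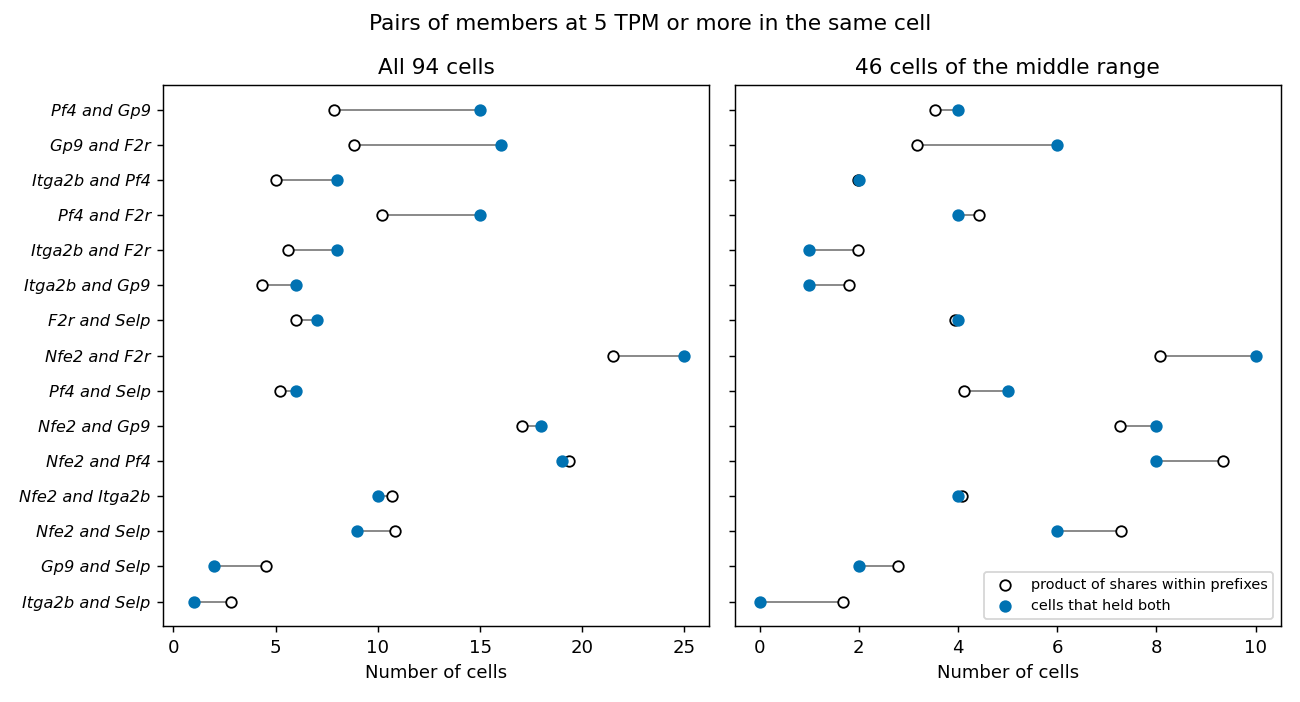
Number of cells (horizontal axis) that held both genes of a pair (blue) and the product of their shares within prefixes (open circles), for the 15 pairs of the 6 members held by 10 or more cells, in all 94 cells (left) and in the 46 cells of the middle range of detected genes (right). Pf4 and Gp9 stand at 15 against 7.83 cells on the left and at 4 against 3.55 on the right, whereas Gp9 and F2r keep a gap on the right, at 6 against 3.18.

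Among the 46 cells of similar gene number the counts of Pf4 with Gp9, F2r and Itga2b lay within 1 cell of the product. Pf4 and Gp9 shared 4 cells there (product 3.55), Pf4 and F2r 4 (product 4.41), and Itga2b and Pf4 2 (product 1.98). Itga2b lay under the product with F2r (1 cell, product 1.98) and with Gp9 (1 cell, product 1.80). Gp9 and F2r still shared 6 cells, against a product of 3.18. Gp9 and Selp shared 2 (product 2.78), and Itga2b and Selp none (product 1.68).

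Other genes of the lineage were described from fixed lists. Of 13 megakaryocyte transcription factor genes, 4 were held by a lower share of cells in both Ski-KO prefixes and 1 by a higher one. The most widely held were Meis1 (81 cells), Fli1 (79), an ETS factor of megakaryocytes, and Gata2 (73). Runx1, a core factor of stem cells and megakaryocytes, was held by 17 Ski-KO and 24 Ski-WT cells, and its share was lower in both prefixes. Of 13 measured receptor and surface genes, 6 were lower and 1 higher in both prefixes. Cd9, a tetraspanin gene, was held by 26 Ski-KO and 33 Ski-WT cells, and Esam, an adhesion molecule gene, by 11 and 16.

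Of 10 granule and secreted protein genes, 2 were lower and 4 higher in both prefixes. Srgn, the granule proteoglycan gene, was held by 92 cells and Angpt1 by 86. Mmrn1, which encodes a multimerin of platelet granules, was held by 22 Ski-KO and 32 Ski-WT cells, and Ppbp by 0 and 2. Of 14 measured genes of platelet cytoskeleton, signalling and secretion, 6 were lower and 2 higher in both. Myh9 (94 cells), Vamp8 (91) and Bin2 (74) were held most widely, and Plek, a substrate of protein kinase C in platelets, by 10 Ski-KO and 17 Ski-WT cells. Across the 4 lists 18 of 50 measured genes were lower in both prefixes and 8 were higher, beside 43% and 16.7% of the 6240 genes. The lists were not filtered, and among all genes above 0 in any cell 39.5% were lower in both.

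The same lists were read in the 27 cells with 3 or more members and the other 67. Gata1, the master factor of megakaryocytes and erythroid cells, was held by 7 of 27 and 1 of 67 cells. Treml1, a platelet granule receptor gene, was held by 6 and 0, and Sdpr by 6 and 1. Runx1 was held by 19 of 27 and 22 of 67, and Fermt3, which encodes the integrin activator kindlin-3, by 26 and 39. These 5 genes were picked after their values were seen. Genes in general were also held more often in the 27 cells: 69% of 6234 genes other than the members had a higher share there, with a median difference of 5.53 percentage points. Of the 50 measured genes of the 4 lists, 36 had a higher share in the 27 cells and 9 a lower one. Among the cells of the middle range, where 48.9% of genes were higher, 25 of the 50 were higher, 15 lower and 10 equal. There Runx1 was held by 9 of 12 and 12 of 34 cells, Fermt3 by 11 and 21, Treml1 by 2 and 0, Sdpr by 1 and 1, and Gata1 by none. Genes with the opposite order, also picked after their values were seen, included Gng11 (1 and 16), Nbeal2 (1 and 9), P2rx1 (1 and 8) and Rasgrp2 (1 and 7).

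The markers of mature megakaryocytes were mostly scarce. The list has 9 measured genes, of which Pf4, Gp9, Selp and Gp1bb are members and only Gp1bb was held by no cell. Of the other 5, Gp1ba was held by 8 cells, Itgb3 by 12, Treml1 by 6, Gp5 by 3 and Ppbp by 2. The summed level of the 9, as log2 of summed TPM + 1, ranged from 0 to 11.8 in prefix 051716, 0 to 12.6 in prefix 051816 and 0 to 12.96 in the Ski-WT cells. The 10 stem cell markers were held in all prefixes but unevenly. Kit was held by 79 cells, Hlf by 65, Ly6a by 56, Mllt3 by 44 and Mecom by 38. Procr was held by 24, Tie1 by 12, Slamf1 by 11, Ctnnal1 by 7 and Fgd5 by 4. In the stem cell list 3 of 10 genes had a higher share in cells with 3 or more members and 7 a lower one. Of 6234 genes in general 69% had a higher share there. The 3 were Kit (24 of 27 and 55 of 67 cells), Slamf1 (5 and 6) and Tie1 (5 and 7). Hlf (15 and 50) and Ly6a (12 and 44), picked after their values were seen, were among the lower ones. Among the erythroid markers Hbb-b1, Hba-a1, Ermap and Aqp1 were held by no cell, and Car2 was held by all 94. Of 9 myeloid markers 4 were held by none (Mpo, Elane, Ctsg and Cebpe), while Prtn3 was held by 14 of the 27 cells and 43 of the other 67. The summed myeloid level ranged from 0 to 12.01, 0.51 to 11.2 and 0 to 11.4 in the 3 prefixes, and the erythroid one from 6.47 to 12.98, 8.56 to 12.9 and 8.42 to 13.3. The part of these markers in the members' values was not tested.

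Finally, the genes with the highest Spearman correlation to the more common members were sought among 6614 other genes held by 10 or more cells. Values were log2(TPM + 1) over the 94 cells, centred within prefix. For Nfe2 none reached 0.4, the highest being 0.38 for Eef2. Pf4 was closest to Fabp5 (0.56), Gtf2h2 (0.56) and Slc16a1 (0.53), and Gp9 to Cirh1a (0.59), Dr1 (0.55) and Gars (0.51). F2r was closest to Coq3 (0.54), Mlf2 (0.48) and Clpx (0.48), Selp to Abcf3 (0.53), Ddx54 (0.51) and Nrp (0.50), and Itga2b to Abhd17a (0.62), Cdc6 (0.62) and Wdr4 (0.61). These rest on few cells, such as 5 that held both Itga2b and Abhd17a, and on many genes compared. For Itga2b 266 of the 6614 genes reached 0.4, for Gp9 54, for Selp 41, for Pf4 29 and for F2r 27. Cells that held Itga2b had a median of 4043.5 genes above 0, and the other cells 3402.5. Centring also gave cells at 0 a different value in each prefix. The coefficients therefore partly reflect prefix means, and not only cells that held both genes. Between members the highest values were 0.37 for Itga2b and Pf4 and 0.34 for Gp9 and F2r, and Gp9 and Selp had 0.03.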

How the data were processed

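Capture used the Fluidigm C1, with SMARTer cDNA and Nextera XT libraries, per the labels' protocols. Per the submitters' processing notes, the tools included Bowtie2 and RSEM and the build was mm9, with no version given. The deposited log2 values were read as log2(TPM + 1), since back-transformed cells summed to between 997625 and 999995. Such values keep no sequencing depth, so the number of genes above 0 stands beside the shares.

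Cells were grouped by title, with the start of the description as prefix. No cell was filtered, and each genotype counted as 1 sample, without a test. Shares at 5 TPM or more carry exact Clopper-Pearson intervals at 95%, and differences of shares carry Newcombe intervals. Alternatives covered other limits, pseudocounts and scalings, single prefixes and 3 ranges of detected genes. The members, the gene lists and the naming rule (all members, and per list the 3 genes held by most cells and the 2 with the largest difference alike in both prefixes) were chosen with earlier results of these data known. Some genes that the rule names are not reported here. Values were computed in Python 3.11.15 (pandas 2.3.3, numpy 2.4.6, and scipy 1.17.1 for intervals) and drawn with matplotlib 3.10.9.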

Additional observations from a re-analysis of the deposited data

How the results depend on the processing

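Over all cells a Ski-KO cell held -0.49 members relative to a Ski-WT cell, and the share of cells with 3 or more members differed by -13.7 percentage points. Of 32 alternative values for both results and for the count of members lower in both prefixes, 28 kept their direction, and differences among these stayed within the interval or spread over cells, which is wide. The share with 3 or more members was -0.72 points after quantile normalization, -4.19 in the middle range of genes above 0 and -28.0 in prefix 051716 alone, and the members held were -0.23, -0.14 and -0.73. In the middle range of genes at 5 TPM or more they became 0.22 members, 1.92 points and 2 members. Prefix 051816 alone gave 6.69 points. The cause was not tested.

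Of 180 values for single members 30 changed direction. In the middle range of genes above 0, Gp9, Itga2b and Vwf turned to 8.57, 2.29 and 9.52 points and to 0.76, 0.27 and 0.32 in log2. In the middle range of genes at 5 TPM or more, Gp9, Itga2b, Pf4 and Vwf turned to 19.6, 3.46, 4.23 and 10 points and to 1.87, 0.50, 0.85 and 0.35 in log2. In the range shared by all prefixes Gp9 turned to 0.14 in log2 and Vwf to 0.12 points. Counting cells above 0 TPM or from 1 TPM, Itga2b turned to 7.34 and 2.99 points and Nfe2 to -4.89 and -3.26 points. Nfe2 turned to -5.32 points and -0.61 in log2 in prefix 051716, and Gp9 to 2.41 points and 0.40 in log2 in prefix 051816. The log2 ratio of mean TPM + 1 was 0.39 for Gp9 and -0.27 for Nfe2, and a pseudocount of 0.1 gave 0.11 for Itga2b. Quantile normalization gave 1.54 points for F2r, and 0.72 points and 0.19 in log2 for Itga2b.

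Leaving out the tenth of cells with the most genes above 0, chosen after seeing the data, gave -0.37 members, -13.1 points and 5 members. No paired analysis was possible because cell numbers only name cells and the values come from no test. Sequencing depth is unknown, so a gene at 0 may be undetected.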

Other observations

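DNA replication and mitosis genes were read in the same cells, with a list of 14 genes chosen after the values above were seen. Cells with 3 or more members held a mean of 5.15 of the 14 (median 6, range 0 to 12, 27 cells), and the other 67 cells held 3.04 (median 2, range 0 to 10). Of the 14 genes 13 had a higher share in the cells with 3 or more members, beside 69% of 6234 genes in general. Mcm5, a subunit of the replicative helicase, was held by 12 of 27 and 13 of 67 cells, and Cdc6, a licensing factor gene, by 7 and 5. Mki67, the proliferation marker, was the exception, at 4 and 11.

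These genes also moved with the number of detected genes. Mcm5 was held by 18 of the 24 cells with the most genes above 0, by 5 of the 46 between and by 2 of the 24 with the fewest, and Top2a by 16, 7 and 1. In the middle range the order was the other way, with a mean of 2.33 of 14 genes in 12 cells with 3 or more members and 2.71 in the other 34. There 5 of the 14 genes had a higher share in the cells with 3 or more members, beside 48.9% of genes in general. The part of replication genes and gene number in the co-detection of Pf4, Gp9 and F2r was not tested further.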
